A study of Rattus norvegicus with 232 samples.

Results

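The brains of Dark Agouti rats (DA/OlaHsd) were compared with those of ACI rats (ACI/SegHsd), both classic inbred members of the Hybrid Rat Diversity Panel. Members were chosen by the strain label, which gave 6 of the 232 samples of the series, 3 animals of each strain, and every gene of the RefSeq gene table was tested. All 6 animals were male and untreated, carried no engineered allele and were young adults by the study's methods. The tissue is labelled whole brain, of which the methods took 1 side after a sagittal cut, and it gave the total RNA, which was sequenced with strand information after ribosomal RNA had been depleted. The batch label was 11, 10 and 8 for ACI/SegHsd 1, 2 and 3, and 10, 10 and 8 for DA/OlaHsd 1, 2 and 3, whereas the sample titles gave batch 8 for all 6. Each strain is a single inbred line from a single colony, so strain and colony cannot be told apart. Nothing says whether the animals came from separate litters. Unless a fit of fewer animals is named, the p-values and SEs use the spread between animals of the same strain, pooled over 197 animals of 74 strains. They thus do not measure the spread of these 6 samples alone, nor that between litters or colonies.

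Rats of an inbred strain are near-identical in genotype, and strains differ from each other at many fixed variants. Dark Agouti rats are known for their high susceptibility to experimental autoimmune encephalomyelitis and to induced arthritis, and as a model of poor metabolism of drugs cleared by the Cyp2d enzymes. ACI rats descend from a cross of August and Copenhagen stock, are agouti with a white belly, and are known for mammary tumours under oestrogen and for malformations of the urogenital tract. Both strains are agouti and share the same class of major histocompatibility haplotype.

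The deposited values were read as log2 levels, on which a difference of 1 stands for a doubling. The study describes a regularized log transformation for an earlier version of the data. If it was applied here too, it pulls low counts towards the mean of all libraries and makes differences of weakly expressed genes smaller. The medians of the 6 libraries lay between 8.30 and 8.35, and those of all libraries of the table between 8.18 and 8.42. The values held the marks of brain, since 11 of 11 neuronal, 9 of 9 astrocyte and 22 of 22 myelin genes were above the median level of all genes, against 2 of 12 liver genes. Also above it were 8 of 10 genes of meninges and fibroblasts and 6 of 9 of blood. Of the Hox genes of the hindbrain, which is part of the brain, 0 of 12 were above it. ACI/SegHsd 1 and 3 stood apart from the mean of their strain, with median absolute deviations of 0.139 and 0.142, against 0.0613 to 0.0686 in the other 4 animals.

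Few genes separated the strains. Of 20859 genes, 99 (0.475%) passed a false discovery rate of 5% in limma's moderated test, of which 42 (0.201%) were higher in DA/OlaHsd and 57 (0.273%) were lower. Their differences ranged from 0.27 to 2.98 in size with a median of 0.76, against a median absolute difference of 0.092 over all genes, and 25 exceeded 1. Values of the strains did not overlap for 98 of the 99, whereas they did not overlap for 2012 of all genes (9.65%). Called genes were mostly weakly expressed, with a median level of 6.19 against 8.33 over all genes, and 24 of them were above that median. Under the batch label the comparison could also be made within batch 8 (1 animal against 1) and within batch 10 (2 DA/OlaHsd animals against 1); for the 98 genes without overlap the direction there is fixed, so only the size is informative. Within batch 8 and batch 10 the difference was 0.85 and 1.03 for Mx2, -0.91 and -1.01 for Abca9, -0.36 and -0.74 for Grm2, and -0.060 and -0.52 for Tgfbr2. A fit that held batch as a further term called 103 (42 higher and 61 lower). Fits of animals of these strains alone turned the balance of directions. They gave 37 higher and 31 lower in the 5 animals of batches 8 and 10 with that term, 25 and 15 in only the 6 animals, and 27 and 17 in the 6 with the replicate number as a block, which are 68, 40 and 44 genes. Replicate numbers do not pair the animals. The block thus has no basis in the design, and calls kept or lost under it show only dependence on the model. With the other strains kept, the split was 30 and 30 without DA/OlaHsd 1, 28 and 26 without DA/OlaHsd 2, 27 and 28 without DA/OlaHsd 3, and 33 and 51 without ACI/SegHsd 1. A smaller number was called without DA/OlaHsd 1 (60), DA/OlaHsd 2 (54), DA/OlaHsd 3 (55) or ACI/SegHsd 2 (47), while 84 and 86 were called without ACI/SegHsd 1 and ACI/SegHsd 3.

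**Figure D1:**
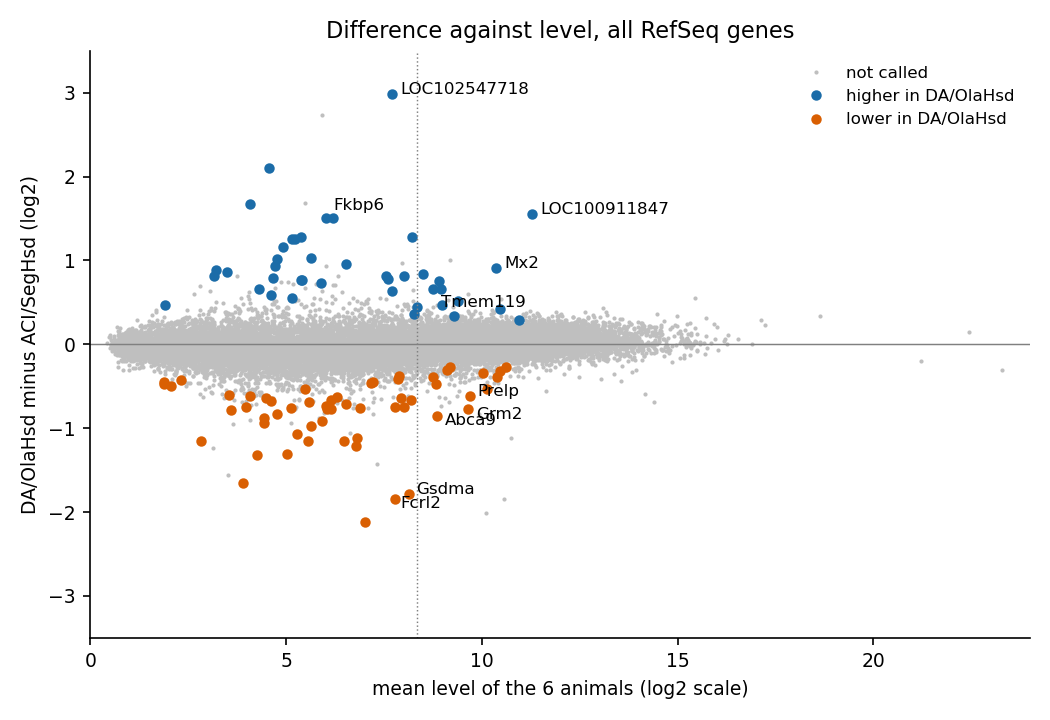
Difference between the strain means (DA/OlaHsd minus ACI/SegHsd, log2) against the mean level of the 6 animals (log2 scale), 1 point per gene; blue points are the 42 genes called higher, orange points the 57 called lower, grey points the rest, and the dotted line is the median level of 8.33. Most called genes lie to the left of that line.

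Among genes above the median level with a gene symbol and non-overlapping values, 9 were higher in DA/OlaHsd. Mx2 (chromosome 11, 36905698 to 36937572), an interferon-inducible GTPase of the dynamin family with antiviral activity, led them. It was at 9.89, 9.71 and 10.16 in ACI/SegHsd 1, 2 and 3, and at 10.82, 10.66 and 11.01 in DA/OlaHsd 1, 2 and 3. The lowest DA/OlaHsd animal was thus above the highest ACI/SegHsd animal, and the difference was 0.91 ± 0.17 (SE, n = 3 and 3, adjusted p = 0.000223), a 1.88-fold higher level. Tmem119 (chromosome 12, 42828621 to 42835678), a surface protein that marks microglia, was at 8.64, 8.51 and 8.15 in ACI/SegHsd and at 9.15, 9.01 and 9.13 in DA/OlaHsd. Its difference was 0.66 ± 0.17 (SE, adjusted p = 0.0312), with all DA/OlaHsd animals higher. In bulk tissue, more cells of a type and more RNA per cell cannot be told apart. Nit2 (chromosome 11, 43363839 to 43378713), an omega-amidase of the nitrilase family, was at 8.53, 8.83 and 8.57 in ACI/SegHsd and at 9.38, 9.35 and 9.16 in DA/OlaHsd, a difference of 0.65 ± 0.12 (SE, adjusted p = 0.000381). Wipi1 (chromosome 10, 94456285 to 94580260), a phosphoinositide-binding protein of early autophagosomes, was at 9.13, 9.08 and 9.17 in ACI/SegHsd and at 9.61, 9.77 and 9.55 in DA/OlaHsd, a difference of 0.52 ± 0.098 (SE, adjusted p = 0.00035). The ranges of both genes were well apart. Mx2, Nit2 and Wipi1 were called whichever of the 6 animals was left out, with adjusted p up to 0.0188, 0.0141 and 0.0259, but none of the 3 was called when only the 6 animals were fitted (adjusted p = 0.0612, 0.129 and 0.18), and Nit2 and Wipi1 also lost the call with the replicate block (adjusted p = 0.157 and 0.387) and in the 5 animals of batches 8 and 10 (adjusted p = 0.112 and 0.183). Tmem119 was called in 1 of the 6 cases, namely without ACI/SegHsd 1, with adjusted p up to 0.269 without ACI/SegHsd 3, and in none of those 3 fits.

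The other 5 higher genes differed by 0.29 to 0.47. Sspn, which encodes sarcospan of the dystrophin-glycoprotein complex, differed by 0.47 ± 0.12 (SE, adjusted p = 0.0292). Zfp488, a zinc finger protein of the oligodendrocyte lineage, differed by 0.45 ± 0.098 (SE, adjusted p = 0.0045), with 8.16, 7.99 and 8.25 in ACI/SegHsd and 8.58, 8.54 and 8.62 in DA/OlaHsd. Orai2, a subunit of store-operated calcium channels, differed by 0.42 ± 0.097 (SE, adjusted p = 0.0109). Mrps35 of the small subunit of the mitochondrial ribosome differed by 0.34 ± 0.075 (SE, adjusted p = 0.0058). Rhou was at 10.82, 10.79 and 10.85 in ACI/SegHsd and at 11.11, 11.04 and 11.16 in DA/OlaHsd, the smallest of these differences at 0.29 ± 0.069 (SE, adjusted p = 0.0193). These 5 genes kept their calls in 1, 4, 3, 4 and 2 of the 6 cases in which an animal was left out, in the order given, and the highest adjusted p of each lay between 0.126 and 0.43. None of the 5 was called with only the 6 animals, with the replicate block or in the 5 animals of batches 8 and 10.

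On the other side, 12 genes of the same kind were lower in DA/OlaHsd, with Abca9 in the lead. Abca9 (chromosome 10, 95001480 to 95211566), an ATP-binding cassette transporter of the A subfamily, was at 9.08, 9.44 and 9.31 in ACI/SegHsd and at 8.41, 8.45 and 8.40 in DA/OlaHsd. The difference was -0.86 ± 0.13 (SE, n = 3 and 3, adjusted p = 3.94e-06), a 1.81-fold higher level in ACI/SegHsd, and the DA/OlaHsd animals nearly coincided. In the version 7.1 table of reconstructed genes, where more than 1 gene carries this symbol, the one with the higher level turned direction (0.42, adjusted p = 0.646). Grm2 (chromosome 8, 107279225 to 107294401) encodes the group II metabotropic glutamate receptor 2, which sits mainly on presynaptic terminals and dampens transmitter release. It was at 10.44, 9.94 and 9.73 in ACI/SegHsd and at 9.23, 9.18 and 9.37 in DA/OlaHsd, a difference of -0.77 ± 0.20 (SE, adjusted p = 0.0292). ACI/SegHsd 1 was the highest animal, and the call held only without ACI/SegHsd 3 among the 6 animals left out (adjusted p = 0.473 without ACI/SegHsd 1). Dcps (chromosome 8, 33404484 to 33524407), the scavenger enzyme that clears the cap left after mRNA decay, was at 10.37, 10.57 and 10.29 in ACI/SegHsd and at 9.95, 9.91 and 9.77 in DA/OlaHsd. Its difference of -0.53 ± 0.081 (SE, adjusted p = 1.68e-06) had an adjusted p of at most 0.0012 without any single animal, but Dcps was not called with only the 6 animals (0.225), with the replicate block (0.302) or in the 5 animals of batches 8 and 10 (0.0988). In the table of reconstructed genes Dcps differed by 0.012 (adjusted p = 0.996), and in the version 5 table described further on by -0.24 (adjusted p = 0.139).

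Prelp (chromosome 13, 45353954 to 45391480), a leucine-rich repeat proteoglycan of connective tissue, was at 10.10, 10.22 and 9.68 in ACI/SegHsd and at 9.35, 9.43 and 9.37 in DA/OlaHsd, a difference of -0.62 ± 0.15 (SE, adjusted p = 0.0234). Col12a1, a fibril-associated collagen chain, was at 10.63, 10.64 and 10.52 in ACI/SegHsd and at 10.15, 10.29 and 10.17 in DA/OlaHsd, a difference of -0.39 ± 0.097 (SE, adjusted p = 0.0237). Tgfbr2, the type II receptor for transforming growth factor beta, differed by -0.31 ± 0.076 (SE, adjusted p = 0.0193). These genes were called in 1, 2 and 3 of the 6 cases without 1 animal, with adjusted p up to 0.405 (without ACI/SegHsd 2), 0.197 (without DA/OlaHsd 1) and 0.434 (without DA/OlaHsd 1). Beside them, 10 of 10 marker genes of meninges and fibroblasts had lower means in DA/OlaHsd and none was called, with a median difference of -0.25. The log2 of the summed level of that list was 14.07, 14.29 and 13.73 in ACI/SegHsd and between 13.72 and 13.79 in DA/OlaHsd, no marker was at 0, and their part in the lower level of Prelp, Col12a1 and Tgfbr2 was not tested. Bbs12, Pcdhb16l, Gatd1, Zfp61, Tmem248 and Aasdh made up the rest of the 12, with differences from -0.47 to -0.27. Bbs12 is a chaperonin-like protein of the Bardet-Biedl syndrome group and Zfp61 is a zinc finger protein. Of these 12 genes, Abca9 was the 1 that was called with only the 6 animals, with the replicate block and in the 5 animals of batches 8 and 10, and the other 11 were called in none of the 3.

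**Figure D2:**
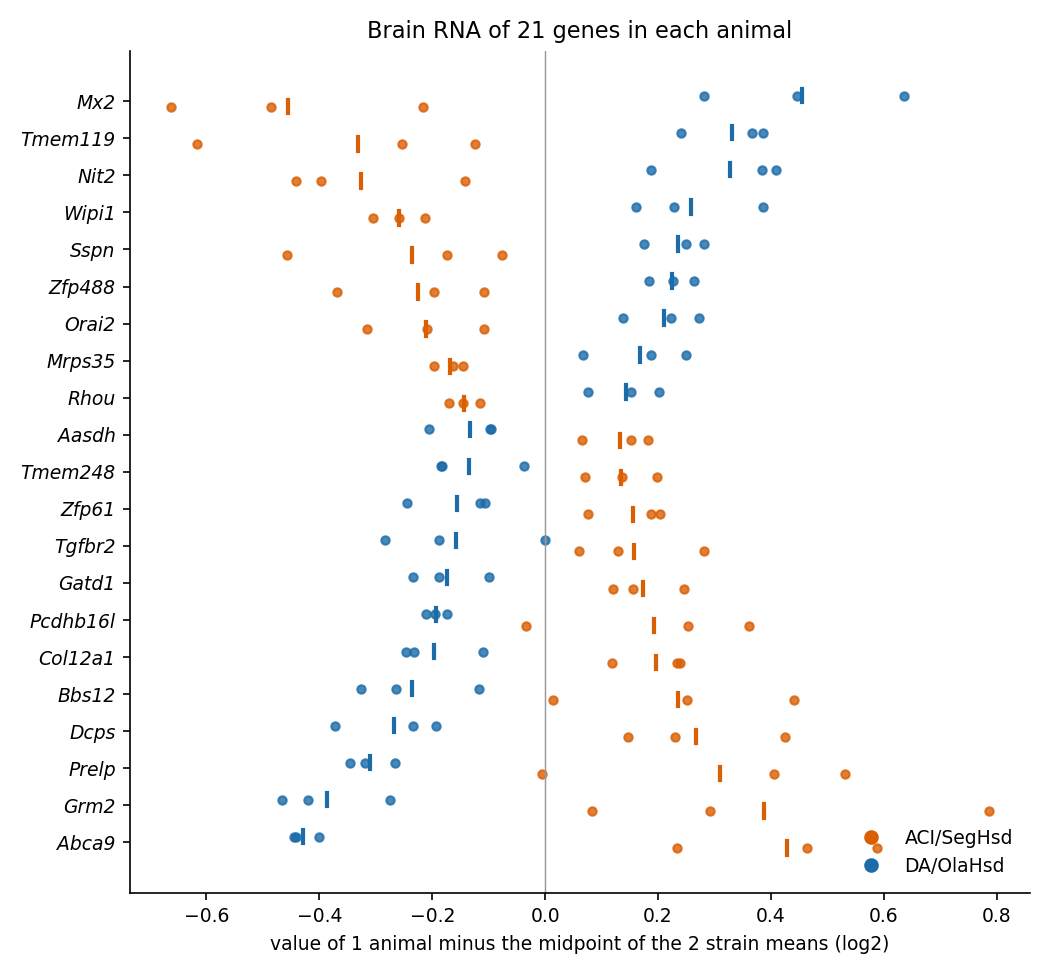
Values of 21 genes in each animal (points), as the log2 value minus the midpoint of the 2 strain means, with vertical bars for the strain means; ACI/SegHsd orange, DA/OlaHsd blue. The 21 genes were chosen among called genes for values that do not overlap between the strains, and Mx2 and Abca9 have the widest distance between means in their direction.

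Larger differences were found among genes below the median level or without a symbol of their own, which are named here after their values were seen. Fcrl2 (chromosome 2, 172694308 to 172707261), an Fc receptor-like protein, was at 8.68, 8.75 and 8.67 in ACI/SegHsd and at 6.96, 6.81 and 6.78 in DA/OlaHsd, a difference of -1.85 ± 0.20 (SE, adjusted p = 2.74e-12). The animals of each strain lay close together and the strains far apart. Lilrb3l and Lilrb3a are symbols that RefSeq (GRCr8) lists as synonyms within the paired immunoglobulin-like receptors Pira2 and Pirb, which myeloid and B cells carry. Lilrb3l was at 7.24, 7.41 and 7.45 in ACI/SegHsd and at 6.40, 6.30 and 6.06 in DA/OlaHsd, a difference of -1.11 ± 0.17 (SE, adjusted p = 1.99e-06). Lilrb3a differed by -0.91 ± 0.15 (SE, adjusted p = 2.1e-05), and Lair1, an inhibitory receptor for collagen, by -0.71 ± 0.15 (SE, adjusted p = 0.0029). As the receptors of this cluster are similar in sequence, how reads were divided between them is uncertain. Fcrl2, Lilrb3l and Lilrb3a were called whichever animal was left out, Lilrb3a was not called with only the 6 animals (adjusted p = 0.0612), and Lair1 was not called without ACI/SegHsd 2 (adjusted p = 0.155) or DA/OlaHsd 3 (adjusted p = 0.167), with only the 6 animals (adjusted p = 0.381) or with the replicate block (adjusted p = 0.2).

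Gsdma, a gasdermin, was at 8.79, 8.96 and 9.32 in ACI/SegHsd and at 7.03, 7.45 and 7.23 in DA/OlaHsd, a difference of -1.79 ± 0.17 (SE, adjusted p = 6.22e-14). Niban3, at 6.24, 6.04 and 6.15 in ACI/SegHsd, was at 4.93, 5.03 and 5.00 in DA/OlaHsd (difference -1.16 ± 0.17 SE, adjusted p = 2.96e-07). Both were well separated here, but in the version 7.1 table of reconstructed genes Niban3 differed by -0.11 (adjusted p = 0.974), and Gsdma was not called in version 5. Sphk1, a kinase that makes sphingosine 1-phosphate, differed by -0.77 ± 0.17 (SE, adjusted p = 0.0068), and Ifitm1, an interferon-inducible membrane protein, by -0.69 ± 0.17 (SE, adjusted p = 0.0195); neither kept its call in every case without 1 animal, with adjusted p up to 0.146 (without ACI/SegHsd 1) and 0.264 (without ACI/SegHsd 2), and neither was called with only the 6 animals, with the replicate block or in the 5 animals of batches 8 and 10. Ugt1a7c, a glucuronosyltransferase whose later exons are shared by the Ugt1a family, differed by -0.64 ± 0.12 (SE, adjusted p = 0.000568), so its reads may be divided among family members. It was not called with only the 6 animals (adjusted p = 0.0612), with the replicate block (adjusted p = 0.155) or in the 5 animals of batches 8 and 10 (adjusted p = 0.0591).

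On the higher side, Mnd1, which is needed in meiosis, differed by 1.03 ± 0.18 (SE, adjusted p = 8.54e-05). Fkbp6, another meiotic gene, was at 5.29, 5.20 and 5.28 in ACI/SegHsd and at 6.51, 7.01 and 6.76 in DA/OlaHsd, a 2.83-fold higher level (SE 0.22 on the log2 scale, adjusted p = 1.12e-06). In the version 5 table described further on, the difference of Fkbp6 was 0.28 (adjusted p = 0.0037). Jhy (chromosome 8, 41276162 to 41333383), a gene named for juvenile hydrocephalus in mice, was at 7.20, 7.09 and 7.16 in ACI/SegHsd and at 8.00, 7.92 and 7.96 in DA/OlaHsd, a difference of 0.81 ± 0.14 (SE, adjusted p = 5.48e-05). The 3 genes were called whichever animal was left out, and the range of each strain was narrow for Jhy. Cnmd, which encodes chondromodulin of cartilage, differed by 1.25 ± 0.26 (SE, adjusted p = 0.0029), and was not called without DA/OlaHsd 2 (adjusted p = 0.104) or ACI/SegHsd 2 (adjusted p = 0.0893). Hmgb2, a chromatin protein, and its copy Hmgb2l1 differed in opposite directions, by -1.15 ± 0.25 (SE, adjusted p = 0.0045) and 1.51 ± 0.38 (SE, adjusted p = 0.0326). By their names these are copies of each other, so that the division of reads between them is uncertain. Hmgb2 lost its call without DA/OlaHsd 2 (adjusted p = 0.089) or ACI/SegHsd 2 (adjusted p = 0.0614), and Hmgb2l1 whichever of the 6 animals was left out.

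Without a gene symbol of their own were 51 of the 99 called features, and 26 of the 99 were long non-coding RNAs in RefSeq (GRCr8), against 50 protein-coding genes and 20 with no entry there. The shares of these classes among all tested genes were not counted, so these numbers only describe the called features. LOC102547718, a long non-coding RNA, showed the largest difference of all, at 6.33, 6.22 and 6.13 in ACI/SegHsd and 9.16, 9.42 and 9.03 in DA/OlaHsd (2.98 ± 0.39 SE, adjusted p = 1.62e-08), a 7.89-fold higher level. ACI/SegHsd was the lowest of 69 strains for it, at a mean of 6.23, and DA/OlaHsd ranked 33. The other 67 strains ranged from 6.64 to 11.02, and 53 of them lay on the DA/OlaHsd side of the midpoint. Most of them had other batch labels, so strain and batch cannot be told apart in these ranks. The most strongly expressed called feature, LOC100911847, was at 10.80, 10.24 and 10.48 in ACI/SegHsd and 12.29, 11.96 and 11.95 in DA/OlaHsd (1.56 ± 0.27 SE, adjusted p = 7.83e-05). The largest difference in the other direction was that of LOC100359876, a protein-coding gene of the X chromosome, at 7.67, 8.59 and 7.94 in ACI/SegHsd and 6.30, 5.95 and 5.60 in DA/OlaHsd (-2.12 ± 0.27 SE, adjusted p = 1.33e-08). Finally, LOC682708 and LOC691308, which RefSeq lists as variable segments of antigen receptors, were lower in DA/OlaHsd by 1.31 and 1.07 on the log2 scale (adjusted p = 0.0058 and 0.0068).

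Clustered protocadherins are cell adhesion proteins that neurons express in varying combinations, each from its own promoter in a tandem array. Many of these promoters carry a conserved element with the core CGCT. Of 36 measured members, 3 were called and all 3 were lower in DA/OlaHsd, which is 8.33% against 0.475% of all genes. Pcdhga1 was at 7.14, 8.08 and 6.98 in ACI/SegHsd and at 6.40, 6.57 and 5.60 in DA/OlaHsd (-1.21 ± 0.27 SE, adjusted p = 0.0068). Pcdhb3 (chromosome 18, 29011667 to 29014221) was at 7.34, 7.43 and 7.40 in ACI/SegHsd and at 6.98, 6.88 and 6.94 in DA/OlaHsd (-0.46 ± 0.098 SE, adjusted p = 0.0036). Pcdhb16l was at 8.73, 9.02 and 9.12 in ACI/SegHsd and at 8.57, 8.55 and 8.59 in DA/OlaHsd (-0.39 ± 0.096 SE, adjusted p = 0.0245). All DA/OlaHsd animals were below all ACI/SegHsd animals for each, although Pcdhga1 varied widely within strains. Pcdhga1 lost its call without ACI/SegHsd 2 (adjusted p = 0.447) or DA/OlaHsd 3 (adjusted p = 0.276), Pcdhb3 without ACI/SegHsd 2 (adjusted p = 0.0506) or DA/OlaHsd 2 (adjusted p = 0.0524), and Pcdhb16l kept it only without ACI/SegHsd 1. None of the 3 was called with only the 6 animals (adjusted p = 0.416, 0.21 and 0.63 for Pcdhga1, Pcdhb3 and Pcdhb16l), and only Pcdhga1 was called with the replicate block and in the 5 animals of batches 8 and 10. A raw p under 0.05 was found for 12 of the 36 members, and values did not overlap for 11, against 6.69% and 9.65% of all genes. Means were higher in DA/OlaHsd for 11 of 36 and the median difference was -0.10 against -0.0062 over all genes. Of 8 members that could be matched in the version 5 table, 4 had higher means and 1 was called (Pcdhb3), with a median difference of -0.0075. Pcdhga11 had a difference of 0.34 (adjusted p = 0.143) and Pcdhgb8 one of -0.37 (adjusted p = 0.0742). The genes of these arrays are similar in sequence, and the constant exons are shared within the gamma array, so that the division of reads between members is uncertain.

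The promoters of the 3 called members, from 250 bases before to 50 bases after the start, are given below from RefSeq (GRCr8, the reference of the BN strain, which is neither of the strains compared). They are shown because each of these genes has a promoter of its own; Pcdhb3 and Pcdhb16l belong to the beta array and Pcdhga1 to the gamma array. Capitals mark the letters CGCT, searched on both strands, which 60.9% of 33469 promoters of this length hold. Of 32 measured protocadherins with an entry, 27 hold it. Pcdhb3 holds it 1 time and neither of the other called members does, which says only that these letters are absent from the window.
Pcdhb3 (chr18:29285425-29285724, plus strand): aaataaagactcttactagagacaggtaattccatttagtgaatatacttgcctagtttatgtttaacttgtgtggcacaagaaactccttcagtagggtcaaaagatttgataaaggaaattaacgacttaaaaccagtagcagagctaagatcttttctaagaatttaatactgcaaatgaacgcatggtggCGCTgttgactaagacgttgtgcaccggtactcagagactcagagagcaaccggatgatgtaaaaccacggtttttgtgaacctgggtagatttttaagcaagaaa
Pcdhb16l (chr18:29458520-29458819, plus strand): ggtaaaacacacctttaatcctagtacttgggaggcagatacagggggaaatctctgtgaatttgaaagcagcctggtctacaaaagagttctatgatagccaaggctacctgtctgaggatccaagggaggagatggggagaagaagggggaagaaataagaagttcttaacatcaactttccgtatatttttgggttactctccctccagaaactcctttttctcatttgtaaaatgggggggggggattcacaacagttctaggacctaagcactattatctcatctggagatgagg
Pcdhga1 (chr18:29738389-29738688, plus strand): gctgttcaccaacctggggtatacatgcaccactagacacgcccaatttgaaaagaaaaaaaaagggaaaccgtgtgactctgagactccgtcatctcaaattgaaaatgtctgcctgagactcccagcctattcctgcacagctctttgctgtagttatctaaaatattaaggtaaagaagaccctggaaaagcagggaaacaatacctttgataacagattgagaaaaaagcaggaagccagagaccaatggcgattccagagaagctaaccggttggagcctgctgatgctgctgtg

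Lists of genes by function held 1206 measured genes, of which 10 (0.829%) were called, against 0.475% of all genes. A raw p under 0.05, given below for single lists, was found for 6.69% of all genes. In the interferon-stimulated list 1 of 42 genes was called, the higher Mx2, while 30 of 42 had lower means in DA/OlaHsd and the median difference was -0.11. Usp18, a negative regulator of interferon signalling, had a difference of -0.46 (adjusted p = 0.472) and Irf7, a transcription factor of the response, one of -0.40 (adjusted p = 0.722). Most members of its list thus had means on the other side from Mx2. Of 19 microglial genes Tmem119 was the 1 called, 6 had higher means in DA/OlaHsd, 2 had a raw p under 0.05 and the median difference was -0.033, and P2ry12, another microglial marker, had a difference of -0.14 (adjusted p = 0.917). No member was called among 37 genes of MHC class I and antigen processing, 9 of MHC class II or 29 complement genes. A raw p under 0.05 was found for 0 of the MHC class I genes. MHC class II genes had a median difference of -0.15 and complement genes one of -0.098, and the raw p was under 0.05 for 1 and 5 of them. Among 9 candidate genes for encephalomyelitis and arthritis taken from crosses with Dark Agouti rats, 0 were called; Ncf1, a subunit of the phagocyte oxidase, was at 7.87, 8.01 and 7.87 in ACI/SegHsd and at 7.63, 7.71 and 7.65 in DA/OlaHsd (difference -0.25, adjusted p = 0.489). A raw p under 0.05 was found for 2 of the 9.

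For drug and aldehyde metabolism, 0 of 51 cytochrome P450 genes and 0 of 25 glutathione S-transferases were called. Gstm1 was at 12.37, 12.38 and 12.10 in ACI/SegHsd and at 11.92, 11.90 and 11.95 in DA/OlaHsd, without overlap, but its adjusted p was 0.126. A raw p under 0.05 was found for 4 P450 genes and 3 transferases. Among 41 genes of alcohol and aldehyde metabolism, 2 members of the aldehyde dehydrogenase 1 family were called, both lower. Aldh1a3 was at 5.76, 5.73 and 5.72 in ACI/SegHsd and at 5.16, 5.18 and 5.27 in DA/OlaHsd (-0.53 ± 0.14 SE, adjusted p = 0.0419), and Aldh1a7 at 4.02, 4.61 and 4.45 against 3.31, 3.42 and 4.10 (-0.75 ± 0.19 SE, adjusted p = 0.0312), the 1 called gene whose strains overlapped. Aldh1a3 lost its call whichever of the 6 animals was left out, and Aldh1a7 was called only without ACI/SegHsd 1 or DA/OlaHsd 3. With batch as a covariate neither was called (adjusted p = 0.0655 for Aldh1a3 and 0.061 for Aldh1a7), nor was either with only the 6 animals, with the replicate block or in the 5 animals of batches 8 and 10.

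In the transmitter lists Grm2 was the 1 called gene of 28 glutamate receptor genes, and 0 of 18 GABA-A receptor, 32 monoamine, 37 neuropeptide and stress and 15 opioid and endocannabinoid genes were called, with a raw p under 0.05 for 3, 3, 1 and 0 of them. Grm3, the other group II receptor, had a difference of 0.22 (adjusted p = 0.222), opposite in sign to that of Grm2. Htr3a, a serotonin-gated channel, was at 7.90, 7.76 and 7.80 in ACI/SegHsd and at 7.33, 7.32 and 7.48 in DA/OlaHsd (difference -0.44, adjusted p = 0.0907). No call was made among 24 immediate early genes, 18 clock genes, 88 cytosolic ribosomal proteins or 349 solute carriers, with a raw p under 0.05 for 1, 2, 9 and 24, the last close to the share over all genes. Zinc finger genes with the prefix Zfp gave 2 calls of 270 (0.741%, near the 0.475% of all genes), Zfp488 higher and Zfp61 lower. Coat colour genes gave 0 calls of 17, with Tyrp1, a melanocyte enzyme, at a difference of -0.57 (adjusted p = 0.151). Protein-coding genes of the mitochondrial genome were not measured in this table.

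Myelin and oligodendrocyte genes had a median difference of 0.24, with 20 of 22 means higher in DA/OlaHsd, none called and 8 with a raw p under 0.05. Mobp, a myelin protein, was at 14.99, 15.07 and 15.49 in ACI/SegHsd and at 15.92, 15.78 and 15.49 in DA/OlaHsd (difference 0.55, adjusted p = 0.188), so that replicate 3 of the strains did not differ. Mal was at 13.09, 13.16 and 13.42 in ACI/SegHsd against 13.55, 13.50 and 13.58 in DA/OlaHsd (difference 0.32, adjusted p = 0.398). No regional marker was called, and the levels of the animals overlapped between strains. Means in DA/OlaHsd lay above those in ACI/SegHsd for 9 of 9 striatal markers (median difference 0.22), and below for 10 of 10 olfactory bulb markers (median -0.44) and 9 of 11 cerebellar markers (median -0.19). The log2 summed level of olfactory bulb markers was 12.41, 11.96 and 12.34 in ACI/SegHsd and between 11.89 and 12.05 in DA/OlaHsd, that of striatal markers was 14.75, 14.29 and 14.33 against 14.56 to 14.80, and that of cerebellar markers 14.64, 14.33 and 14.58 against 14.35 to 14.52. No marker of these lists was at 0. ACI/SegHsd 1 was the highest of its strain for olfactory bulb, striatum and cerebellum, and ACI/SegHsd 2 for choroid plexus (14.92 against 14.14 and 14.16 in ACI/SegHsd 1 and 3). The part of regional content in the called genes was not tested.

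**Figure D3:**
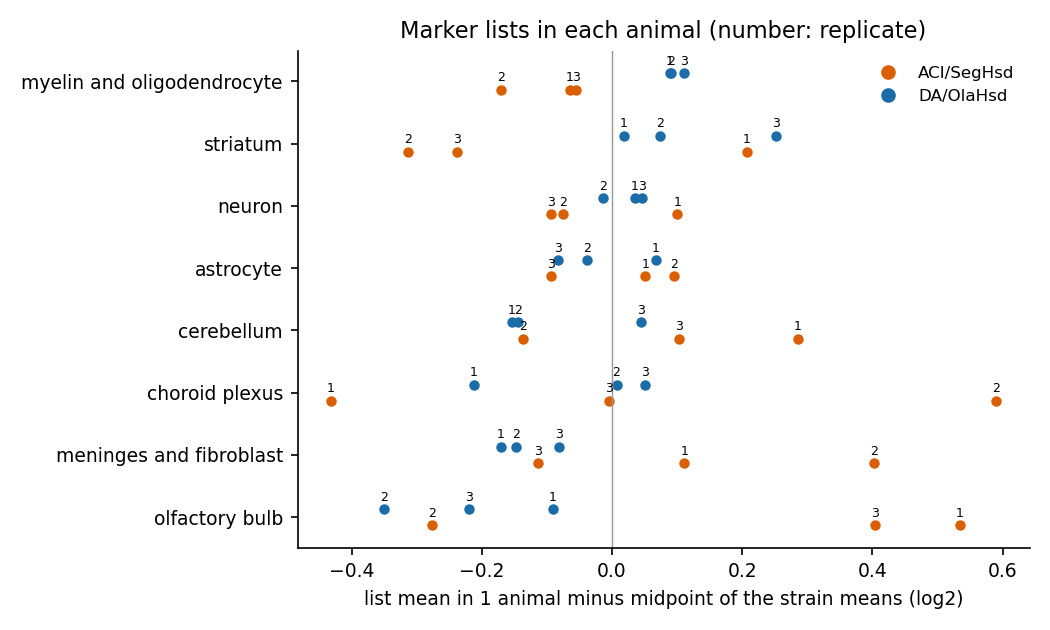
Mean log2 level of 8 marker lists in each animal, minus the midpoint of the 2 strain means; points are animals, numbered by replicate, ACI/SegHsd orange and DA/OlaHsd blue. Myelin is the list of the 8 in which the animals of the strains do not overlap, and ACI/SegHsd animals are spread more widely than DA/OlaHsd animals for choroid plexus and olfactory bulb.

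The comparison was repeated in an earlier table of the same animals, processed by the authors as version 5 with Ensembl 96 gene models, which shares reads with the RefSeq table and is no independent replication. It called 217 of 18309 genes (1.19%), 74 higher and 143 lower in DA/OlaHsd. A single Ensembl gene could be matched for 43 of the 99 called genes. Of these, 41 had the same sign and 32 were called there as well, against 159 of 14563 matched genes (1.09%). Fcrl2 differed by -1.94 there (adjusted p = 1.35e-19), Mx2 by 1.20 (adjusted p = 1.11e-09), Abca9 by -0.94 (adjusted p = 6.1e-16), Grm2 by -1.17 (adjusted p = 1.2e-09) and Tmem119 by 0.57 (adjusted p = 0.0117). Gsdma differed by -0.33 (adjusted p = 0.551), Dcps by -0.24 (adjusted p = 0.139), Hmgb2 by 0.011 (adjusted p = 0.994), Hmgb2l1 by 0.31 (adjusted p = 0.43), Ifitm1 by -0.46 (adjusted p = 0.061) and Tmem248 by 0.0066 (adjusted p = 0.99), and these were not called. Nor were Rhou (0.23, adjusted p = 0.36), Bbs12 (-0.38, adjusted p = 0.166), Fer1l6 (-0.15, adjusted p = 0.138), Apoa5 (-0.83, adjusted p = 0.0526) and RGD1563482 (-0.042, adjusted p = 0.955). Differences that were large in version 5 and close to 0 in the RefSeq table were also found. Srm, spermidine synthase, differed by 2.49 (adjusted p = 7.68e-17) and Fam50a by 2.32 (adjusted p = 1.56e-42) in version 5, against 0.025 (adjusted p = 0.993) and 0.059 (adjusted p = 0.933) in the RefSeq table. In the opposite direction the ribosomal protein gene Rps25 differed by -0.79 (adjusted p = 0.0032) in version 5 and by 0.091 (adjusted p = 0.976) in the RefSeq table. Aldh1a2, a meningeal marker, was called lower in version 5 (-0.62, adjusted p = 0.0048), and means were lower for 9 of 9 matched markers of meninges and fibroblasts (median -0.42). The same held, without a call, for 11 of 11 liver markers (median -0.48), 9 of 9 olfactory bulb markers (median -0.44) and 9 of 9 choroid plexus markers (median -0.14). For liver markers the RefSeq table did not show this, with a median of -0.021 and 5 of 12 means higher in DA/OlaHsd. In version 5 Mog and Mal, 2 of 22 myelin genes, were called higher in DA/OlaHsd (0.38, adjusted p = 0.0467 and 0.42, adjusted p = 0.0492). Some lists without a call in the RefSeq table had one in version 5. These were Htr3a (-0.42, adjusted p = 0.0081) and Htr1a (0.32, adjusted p = 0.0124) of the monoamine list, Tyrp1 (-0.28, adjusted p = 0.0467) of the coat colour list, Cyp26b1 (-0.54, adjusted p = 0.0478) of the P450 list, C5ar1 (-0.31, adjusted p = 0.0444) of the complement list, Rpl6 and Rps25 of the ribosomal list, and Slc13a4, Slc22a2, Slc2a5 and Slc38a9 of the solute carriers (1 higher and 3 lower).

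Levels in the other strains place each strain of the pair within the panel. These strain means hold no batch term, and most of the other strains had other batch labels. Strain and batch thus cannot be told apart in the ranks, extremes and distances that follow. Among 69 strains with 2 or more animals, DA/OlaHsd or ACI/SegHsd had the highest or lowest mean for 35 of the 99 called genes, against 2.48% of all genes. Calling picks genes in which 1 of the strains is displaced, so that share is a description. ACI/SegHsd was the further of the 2 from the median of the other 67 strains for 54 of the 99 (54.5%, against 57.2% of all genes) and DA/OlaHsd for 45. DA/OlaHsd was at an extreme of the 69 for 17 of the called genes and ACI/SegHsd for 18. DA/OlaHsd had the highest mean for genes that include Tmem119, Wipi1, Zfp488, Jhy and Cnmd. For Wipi1, however, ACI/SegHsd at rank 68 was further from the median of the other strains (9.13 against 9.47). DA/OlaHsd at 9.65 was just above the highest other strain for that gene (9.62). The margin was also narrow for Tmem119 (9.09 against 9.05), Zfp488 (8.58 against 8.53), Jhy (7.96 against 7.94) and Cnmd (5.78 against 5.74). DA/OlaHsd had the lowest mean for genes that include Niban3 (4.99, against 5.06 in the lowest other strain), Sphk1 (5.75 against 5.83) and Zfp61 (8.96 against 8.97). It was second lowest for Grm2 at 9.26, where the other strains ranged from 9.03 to 10.45 with a median of 9.98. ACI/SegHsd had the highest mean for Abca9 at 9.28, against 7.86 to 9.12 in the other strains, and also led for Ugt1a7c, Calr3, Fer1l6, Pde6h and Aasdh, and it had the lowest for Orai2 and Rhou. Mx2 was at an extreme in neither strain, with DA/OlaHsd at rank 13 and ACI/SegHsd at rank 60 from the top, and 25 of the 67 other strains lay on the DA/OlaHsd side of the midpoint. Fcrl2 had DA/OlaHsd at rank 66 and ACI/SegHsd at rank 6.

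**Figure D4:**
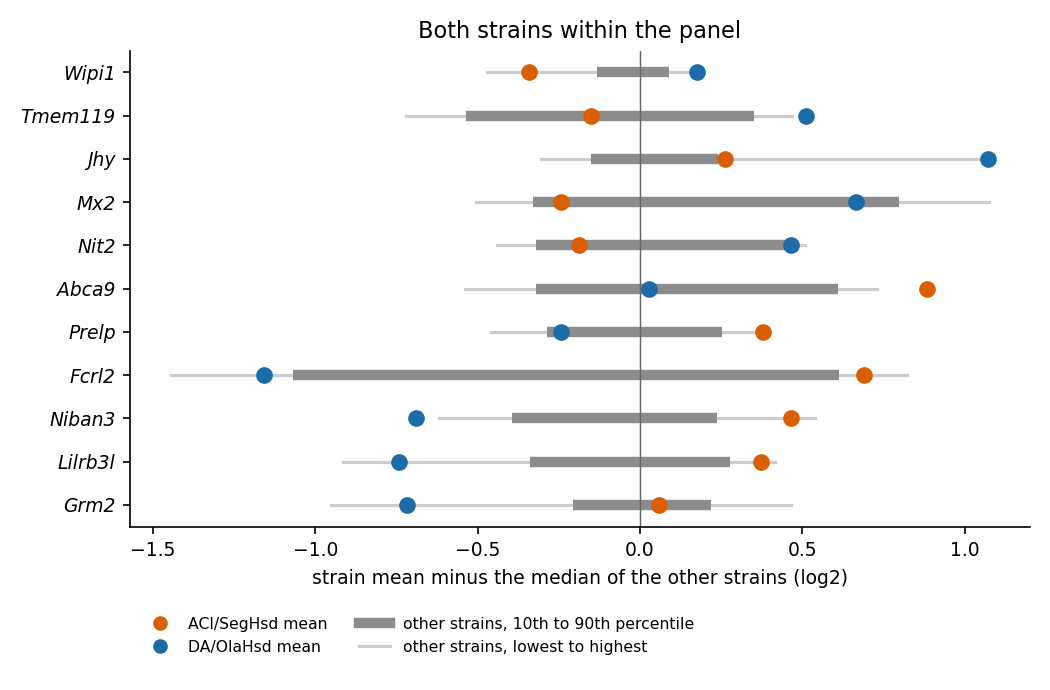
Mean levels of 11 genes in DA/OlaHsd (blue) and ACI/SegHsd (orange) minus the median of the 67 other strains (log2); thick bars span the 10th to 90th percentile of the other strain means and thin bars their lowest to highest. DA/OlaHsd lies beyond every other strain for Wipi1, Tmem119, Jhy and Niban3, and ACI/SegHsd lies beyond them for Abca9. The nearest other strain is close to DA/OlaHsd for Wipi1 (9.62 against 9.65), Tmem119 (9.05 against 9.09), Jhy (7.94 against 7.96) and Niban3 (5.06 against 4.99). Most of the other strains had other batch labels. For Wipi1, ACI/SegHsd lies further from the median than DA/OlaHsd.

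The Copenhagen strain (COP/CrCrl), of the stock from which ACI rats partly descend, had 2 animals in the table. Against COP/CrCrl, 206 genes (0.988%) were called for DA/OlaHsd and 120 (0.575%) for ACI/SegHsd; these comparisons share animals with the main one. Of the 99 genes, 67 had a COP/CrCrl mean closer to ACI/SegHsd than to DA/OlaHsd (67.7%), and so did 60.2% of all genes. Mx2 was at 9.61 and 10.04 in the COP/CrCrl animals, near ACI/SegHsd (difference of ACI/SegHsd from COP/CrCrl 0.0915, of DA/OlaHsd 1.00). Fcrl2 was at 8.45 and 8.66, also near ACI/SegHsd. Fkbp6 was at 7.01 and 6.77, near DA/OlaHsd and above ACI/SegHsd by 1.63 (adjusted p = 1.55e-06). Niban3 at 5.01 and 5.31 was near DA/OlaHsd too.

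Set among all pairs of 18 classic inbred strains with 3 animals in the same model, the count of this pair was low. The 153 pairs had 5 to 5952 called genes with a median of 352, and 4 pairs had fewer than the 99 of DA/OlaHsd and ACI/SegHsd. With batch as a covariate the pair had 103, the median was 307 and 17 pairs had fewer. Animals with libraries in several batches were left out of that fit. Many pairs then had no link between their batches, not even through other strains. For those pairs strain and batch cannot be told apart, so 307 and 17 are not counts adjusted for batch over all 153 pairs. Pairs share strains, so that the counts are not independent. DA/OlaHsd and ACI/SegHsd also have batch labels in common, whereas most of the pairs have none. In the counts of those pairs strain and batch cannot be told apart, so the low count is no measure of how alike these strains are. DA/OlaHsd and F344/Stm had 101 called genes, while ACI/SegHsd and F344/Stm had 125. In the fit with batch as a covariate these became 62 and 187. All F344/Stm animals carried a batch label that no animal of DA/OlaHsd or ACI/SegHsd had. For these 2 pairs strain and batch thus cannot be told apart, with or without the covariate.

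**Figure D5:**
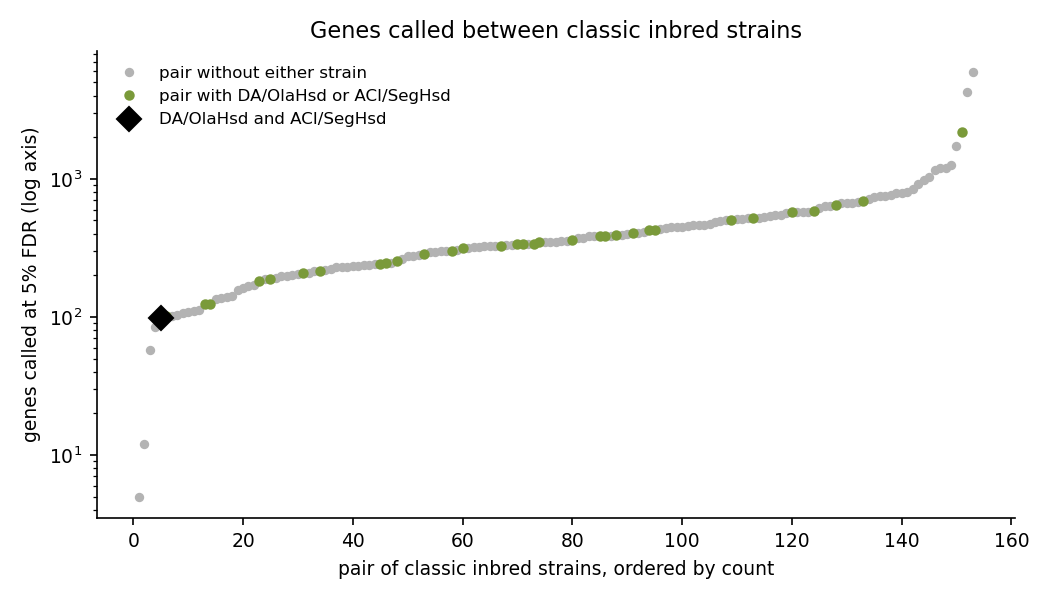
Number of genes called at a false discovery rate of 5% (log axis) for 153 pairs of classic inbred strains in order of count; each point is a pair, green points hold 1 of DA/OlaHsd and ACI/SegHsd, and the black diamond is that pair, at 99 and with 4 pairs below it.

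Positions could be read from the version 7.1 annotation, whose genome build is not given in the sources used here, for 14907 genes and 47 of the called ones. Of the genes with a position 0.315% were called. The 47 lay on 16 chromosomes, with 10 of 1884 tested genes on chromosome 1 (0.531%), 6 of 855 on chromosome 8 (0.702%), 4 of 479 on chromosome 12 (0.835%), 4 of 428 on chromosome 16 (0.935%) and 0 on chromosomes 3, 5, 6, 9 and 17. Of 528 windows of 5 Mb that hold a gene, 43 held a called gene and 4 held 2 of them. These were Ifitm1 and Gatd1 on chromosome 1 (195000001 to 200000000), both lower, Sspn and Mrps35 on chromosome 4 (175000001 to 180000000), both higher, Orai2 and Fkbp6 on chromosome 12 (20000001 to 25000000), both higher, and Calr3 and Niban3 on chromosome 16 (15000001 to 20000000), both lower. Within 2 Mb of another called gene lay 10 of the 47. Wipi1 and Abca9 are among them, on the same strand of chromosome 10, and differed in opposite directions. How many neighbours as near would be found among other genes was not computed, so the count of 10 is a description.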

How the data were processed

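Brains of male rats were measured by stranded total RNA sequencing. The deposited values are on a log2 scale. For the reconstructed transcriptome of version 5 the authors describe trimming, removal of ribosomal reads, alignment to strain-specific genomes, RSEM estimates, removal of 1 unwanted factor and a regularized log transformation; the submitters' processing notes name cutadapt 1.9.1, HISAT2 2.1.0, StringTie 1.3.5, RSEM 1.3.1 and DESeq2, and for later samples Bowtie2 2.4.5, HISAT2 2.2.1, StringTie 2.2.1 and RSEM 1.3.3. Which of these made which table is not stated: the steps of the Ensembl 96 table, and the steps and build of version 7.1, are not given in the sources used here, and the annotation's start and end positions (a unit of its own) were taken as the authors deposited them. No counts were used, so depth is unknown and no counting interval was computed; the number of animals limits precision.

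Groups came from the strain label. Libraries of 1 animal were averaged, spike-ins (73 in version 7.1, 76 in version 5) dropped, and 3 columns that matched no single sample left out. A 1-way layout over 197 animals of 74 strains was fitted with limma 3.58.1 in R 4.3.3 (123 residual and 4.55 prior degrees of freedom) with Benjamini-Hochberg adjustment over 20859 genes; the script was tested on simulated data. An exact permutation test of 3 against 3 cannot go below p = 0.1. Named genes had a symbol, a call, a mean above the median, no value over 30 and strains without overlap, at most 12 each way, plus called list members; others are said to be chosen after their values were seen. The members and lists were chosen with earlier results of these data known. Gene names and biotypes came from RefSeq (GRCr8), which matched 18763 features.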

Additional observations from a re-analysis of the deposited data

How the results depend on the processing

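The 99 genes became 94 after centring each library on its median, 40 with only the 6 animals fitted, 44 with the replicate number as a block among them, 19 when only genes above the median level were tested, 217 in the version 5 table and 162 in the version 7.1 table of reconstructed genes (0.192% of its features); without 1 animal they ranged from 47 to 86. With batch as a covariate in the 5 animals of batches 8 and 10 there were 68. Of the 99, 37, 38 and 47 were also called in the fit of 6 animals, with the block and in the 5 animals, and 92 with batch as a covariate. The 10 called members of the functional lists became 0 with only the 6 animals, 3 with the replicate block, 4 in the 5 animals of batches 8 and 10 and 3 above the median level, and ranged from 1 to 8 without 1 animal.

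Of the 48 called genes with a symbol, 15 stayed called whichever animal was left out (Abca9, Dcps, Fcrl2, Fer1l6, Fkbp6, Gsdma, Jhy, Lilrb3a, Lilrb3l, Mnd1, Mx2, Niban3, Nit2, Ugt1a7c and Wipi1), 13 stayed called in the fit of 6 animals, 43 after centring each library on its median, 31 of 41 with a value in version 5 and 14 of 41 in the reconstructed table. The sign changed for Hmgb2 (0.0106) and Tmem248 (0.0066) in version 5, and for Abca9 (0.4188), Dcps (0.0119) and Gatd1 (0.2583) in the reconstructed table, where several reconstructed genes carry these symbols and the one with the highest level was taken; the cause was not tested. Replicate numbers do not pair the animals, since the deviations of animals 1, 2 and 3 of the strains correlated at -0.10, 0.13 and -0.36 across genes. Depth is unknown, so no limit from counting could be given.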

Other observations

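In the version 5 table Fmod, a proteoglycan of connective tissue, differed by -0.94 (adjusted p = 0.0197), Lama1, a laminin chain of basement membranes, by -0.75 (adjusted p = 5.51e-09), Bmp7 by -0.64 (adjusted p = 0.012), Wnt6 by -0.58 (adjusted p = 0.0029) and Cpxm2 by -0.59 (adjusted p = 0.0029). In the RefSeq table the same genes had differences of -0.64, -0.17, -0.43, -0.57 and -0.44 and none was called. These genes were chosen after their values were seen. Of the animals, ACI/SegHsd 2 had the highest mean level of meningeal and fibroblast markers, 10.49 against 10.19 and 9.97 in ACI/SegHsd 1 and 3 and 9.91 to 10.00 in DA/OlaHsd.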
